A study of Mus musculus with 12 samples.

Results

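Kinesins are motor proteins that walk along microtubules. Some carry organelles and vesicles, and others build and pull apart the mitotic spindle. The kinetochore is the protein plate on the centromere that the spindle holds, and the spindle checkpoint delays chromosome separation until every kinetochore is attached. Aurora and Polo kinases order these steps. In dividing cells most mitotic genes are switched on late in the cycle, and they usually go down when blood progenitors leave the cycle to mature. The genes described here are those whose name on the array begins with Kif, Cenp, Aurk, Plk, Bub or Mad2l, with Top2a, Tpx2 and Incenp. They were 67 gene names on 126 probes, of 27666 names on 41174 probes in all. The rule used names, with no measured value.

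They were measured in PUER cells on 12 one-colour arrays. PUER is a mouse myeloid line without its own PU.1, a transcription factor, whose PU.1 is supplied as a fusion with an estrogen receptor's hormone-binding region; it is kept in IL-3. Adding 4-hydroxytamoxifen (4-OHT) turns the fusion on. The cells held either a retroviral control vector or one whose short hairpin RNA (shRNA) targets Hnrnpa0, an RNA-binding protein, and were sorted for the GFP that the vectors carry. There were 4 groups of 3 arrays: the control vector before 4-OHT, the control vector after 24 h in 2 nM 4-OHT, the shRNA vector before, and the shRNA vector after the same exposure. The study ran 3 experiments in parallel, each with its own clone of either vector, and lettered the arrays A, B and C. The labels do not say whether a letter stands for the same clone before and after 4-OHT. All the cells grew in IL-3, and no group of cells kept in vehicle was analysed here, so 24 h of culture and 4-OHT cannot be told apart.

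Levels are log2 intensity relative to the array's 75th percentile, and changes are log2 differences between group means with the standard error (SE) of a limma fit to all 12 arrays. A gene passed when its p, adjusted by Benjamini-Hochberg over the 15061 genes tested, was below 0.05. Of the 67 genes, 60 were tested. The other 7 (Kif13b, Kif21a, Kif27, Kif2b, Kif5c, Kifc3 and Plk2) were well above background on at most 2 arrays. The 75th percentile lay between 1196 and 2583 intensity units, and the share of spots well above background was 50.3% to 55.7%. The 3 control arrays before 4-OHT shared slide 1 with control A after it. Control B and C after 4-OHT shared slide 2 with shRNA A and B before it, and the rest, shRNA C before and all 3 shRNA arrays after, were on slide 3. Hnrnpa0 itself was 3.11, 3.05 and 2.98 on the control arrays before 4-OHT and 1.93, 1.57 and 1.00 on the shRNA arrays. After 4-OHT it was 2.60, 2.63 and 2.73 against 0.56, 0.65 and 0.46, and the groups did not overlap at either time (log2 difference -1.54, SE 0.18, adjusted p = 0.0127, and -2.10, SE 0.18, adjusted p = 0.00511). With slide as a fixed block both differences were -1.38, with adjusted p of 0.114 before and 0.0897 after. The call before 4-OHT was also lost without control B or C or shRNA B (-1.58 to -1.54, adjusted p up to 0.0691).

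Of 10 macrophage markers, 6 were well above background on all 3 arrays of a group before 4-OHT and 10 after it, in both vectors. The log2 of their summed level lay between 5.50 and 5.88 before and between 6.38 and 6.59 after in the control vector, and between 5.39 and 5.65 before and 5.86 and 6.20 after in the shRNA vector. Of 10 myeloid progenitor markers, 8 were above background in every group (Cd34 and Flt3 were not), and their log2 summed level was 7.60 to 7.81 before and 6.65 to 7.09 after in the control vector (7.56 to 7.74 and 6.66 to 7.06 with the shRNA). The sum for 6 mast cell markers was 0.34 to 0.44 before and -0.78 to -0.45 after in the control vector. With the shRNA the mast cell sum was 0.36 to 0.54 before and -0.54 to -0.49 after. Mcpt8 and Hdc were lower on every array after 4-OHT in both vectors. Fcer1a, which was dim, was higher on every array with the shRNA and overlapped in the control vector, and Ms4a2 overlapped in both. The mast cell markers above background went from 2 to 3 in the control vector and from 3 to 4 with the shRNA. Of 9 late granule markers of neutrophils 7 (control vector) and 8 (shRNA vector) were above background before 4-OHT and all 9 after it, and their sum was 6.95 to 7.35 before and 6.40 to 6.76 after in the control vector, and 6.83 to 6.98 and 6.23 to 6.53 with the shRNA. That sum hides opposite moves. In both vectors Camp, Ngp and Cd177 were lower on every array after 4-OHT. Ltf, Lcn2, Mmp8 and Mmp9 were higher on every array, and S100a8 and S100a9 overlapped. The sum for 5 erythroid markers was 3.08 to 3.19 before and 3.16 to 3.25 after in the control vector, and 3.13 to 3.55 and 3.6 to 3.71 with the shRNA, with 4 above background before and 3 after in both. Nearly all of the erythroid sum was Tfrc, which was higher on every array after 4-OHT in both vectors. Klf1 and Epor were lower on every array, and Hba-a1 overlapped. Between 2 and 4 of the mast cell markers and 2 or 3 of 5 T cell markers were above background, depending on the group. The brightest markers (Lyz2, Mpo, Ctsg, S100a8 and S100a9) read about as high as Incenp, a gene saturated on all 12 arrays. Sums that hold them may be capped by saturation and move with the array's scaling, so small differences between these sums cannot be read. The part of the marker shifts in the results below was not tested. In RNA from whole cultures, fewer cells of a type and less RNA per cell cannot be told apart.

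Promoters from RefSeq (GRCm38.p6, 250 bases before to 50 after a gene's start) were matched for 55 of the 67 genes. Many mitotic genes are known to carry a cell-cycle element, TTTGAA, bound by complexes that silence them outside mitosis, next to a CCAAT box bound by NF-Y. Both were searched on both strands, and their letters do not overlap. TTTGAA lay in the window of 44.4% of the 36 mitotic genes matched (kinases, checkpoint, kinetochore, mitotic kinesins and Top2a), of 11.8% of the 17 transport and other kinesins matched, and of 15.0% of the 9766 tested genes with a promoter. CCAAT lay in 69.4%, 29.4% and 42.8%, and both motifs in 38.9%, 5.88% and 7.38%. Over all 27025 genes with a promoter the shares were 20.2%, 41.1% and 8.97%. The 17 kinesins matched here include Kif21a, Kif27, Kif2b and Kif5c, which were not tested for change. They are thus not the same 17 as the tested ones below. Kif27 was the only one of them with both motifs. Shown are 120 bases before to 10 after the start, first for 4 mitotic genes that hold both motifs and then for the 3 transport kinesins past 2-fold that matched 1 start each (Kif21b was not matched and Kif1a matched 2), with TTTGAA (or TTCAAA) and CCAAT (or ATTGG) in capitals.
Top2a, chr11:99024180-99024309, minus strand: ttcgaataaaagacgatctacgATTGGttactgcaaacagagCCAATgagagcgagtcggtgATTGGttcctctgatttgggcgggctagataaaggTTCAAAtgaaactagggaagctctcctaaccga
Cenpf, chr1:189688077-189688206, minus strand: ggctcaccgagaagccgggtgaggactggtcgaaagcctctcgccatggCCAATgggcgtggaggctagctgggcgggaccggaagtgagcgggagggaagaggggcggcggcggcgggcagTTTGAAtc
Kif11, chr19:37376262-37376391, plus strand: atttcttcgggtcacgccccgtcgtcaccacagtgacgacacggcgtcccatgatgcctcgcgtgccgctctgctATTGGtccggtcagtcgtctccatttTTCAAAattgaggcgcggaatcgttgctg
Kif23, chr9:61946790-61946919, minus strand: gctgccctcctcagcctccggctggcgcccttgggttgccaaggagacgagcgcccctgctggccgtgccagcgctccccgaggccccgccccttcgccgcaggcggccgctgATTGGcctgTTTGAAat
Kif1c, chr11:70700428-70700557, plus strand: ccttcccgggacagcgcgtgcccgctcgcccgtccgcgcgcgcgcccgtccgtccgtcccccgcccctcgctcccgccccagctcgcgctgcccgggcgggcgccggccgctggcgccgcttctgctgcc
Kif3b, chr2:153291296-153291425, plus strand: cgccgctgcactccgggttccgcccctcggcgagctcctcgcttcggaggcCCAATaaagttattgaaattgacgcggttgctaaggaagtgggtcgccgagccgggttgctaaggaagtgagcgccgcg
Kif17, chr4:138262131-138262260, plus strand: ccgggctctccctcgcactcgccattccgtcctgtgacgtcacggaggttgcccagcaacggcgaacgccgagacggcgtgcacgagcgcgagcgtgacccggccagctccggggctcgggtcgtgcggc

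In the full 300-base windows Kif1c and Kif17 held neither motif, and Kif3b held 1 CCAAT. Top2a held 2 TTTGAA and 6 CCAAT. A match of letters is a description of the sequence and not of binding.

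After 24 h of 4-OHT in the control vector, the core mitotic machinery stayed close to its starting level on the probes tested, while a few transport kinesins moved strongly. Of the 60 genes, 10 rose and 6 fell. Over all genes tested 40.5% passed (17.5% higher, 23.0% lower), against 26.7% of these 60. Of the 42 mitotic genes 6 rose and 2 fell, and none passed with a change of 2-fold or more. The 95% interval of the change excluded a 2-fold difference in either direction for 41 of the 42. The exception was Kifc5c, a dim probe for what the reference lists as a pseudogene (interval -1.23 to 1.09). The 41 include Aurka, saturated on 9 of the 12 arrays, and Incenp, saturated on all 12. Their readings are capped and may not show such a change. Of the 17 transport and other kinesins 4 rose and 4 fell, and 5 passed with a fitted change of 2-fold or more, where 10.4% of all genes tested did. The 5 include Kif17 and Kif1a, which were at background after 4-OHT, so the size of their change is uncertain. For Kif1a the lower bound given below is under 2-fold. In the shRNA vector 9 of the 60 rose and 6 fell, 25% in all, where 38.3% of all genes passed (16.5% higher, 21.8% lower). The median change of the 60 was -0.015 in both vectors, and that of all genes tested was -0.07 and -0.08. The counts move with single arrays: 10 fell in the control vector without control A after 4-OHT and 11 in the shRNA vector without that array, and 5 rose in the shRNA vector without shRNA A after 4-OHT.

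**Figure D1:**
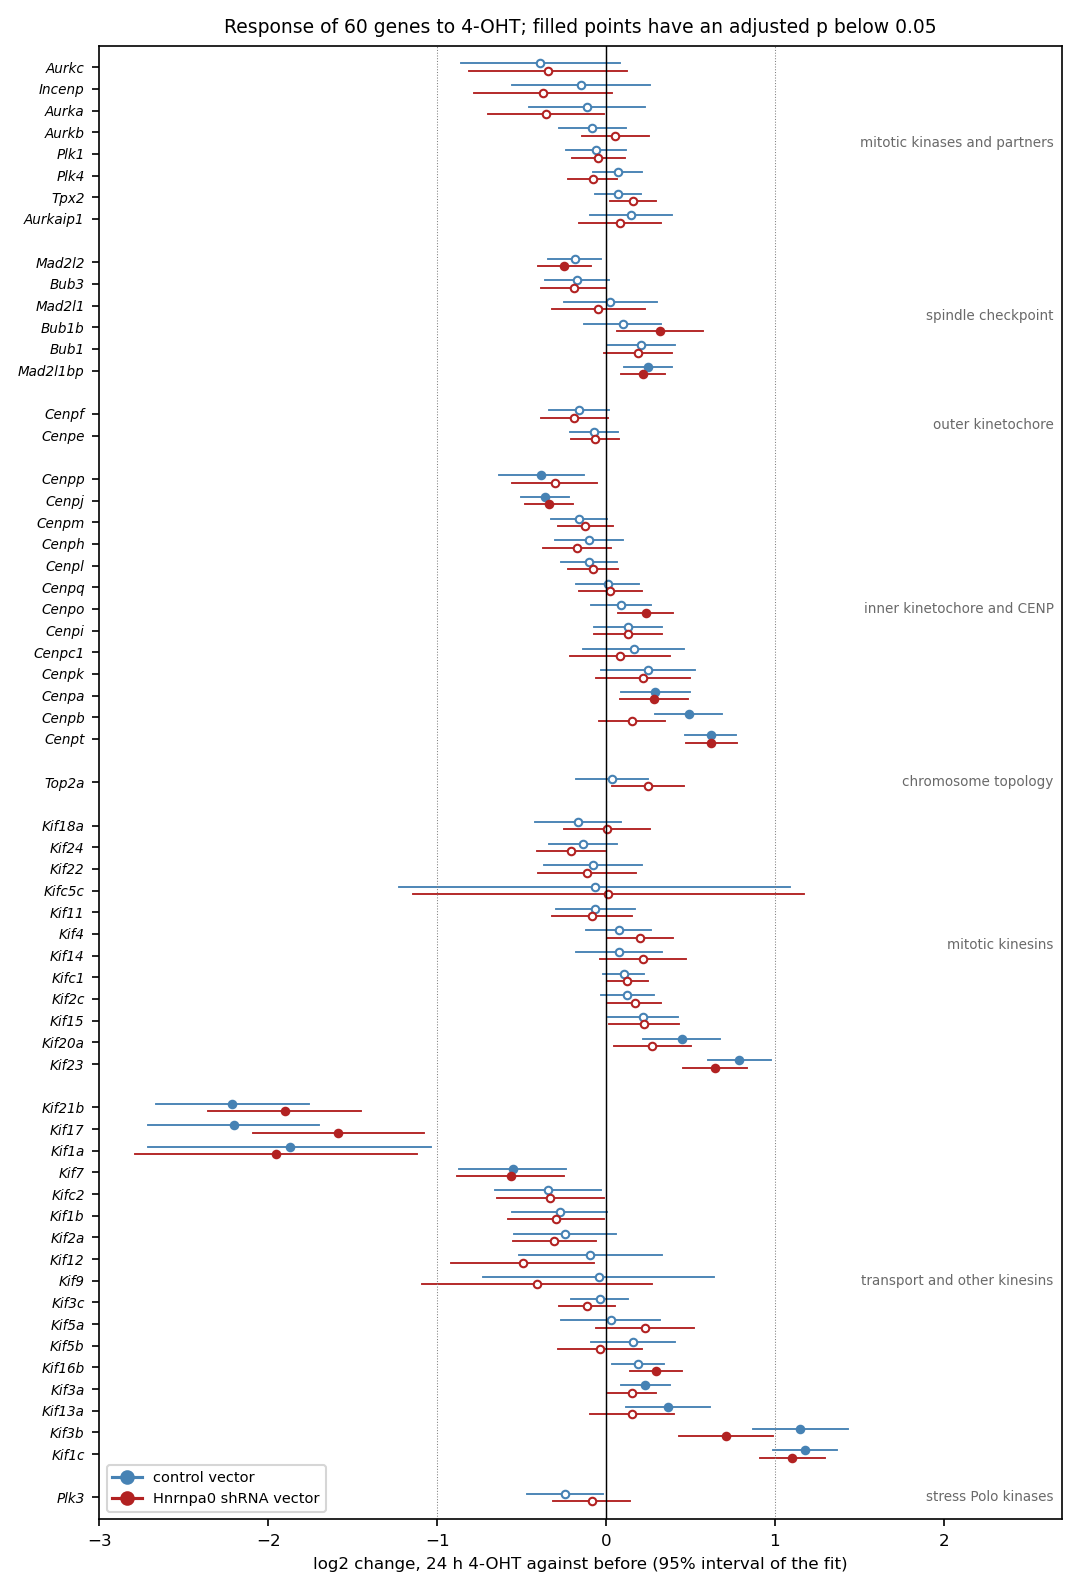
The log2 change after 24 h of 4-OHT is on the horizontal axis for each of the 60 genes, grouped by role, with the 95% interval of the fit in the control vector (blue) and the shRNA vector (red). Filled points have an adjusted p below 0.05, dotted lines mark 2-fold, and the points past them all belong to transport kinesins.

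**Figure D2:**
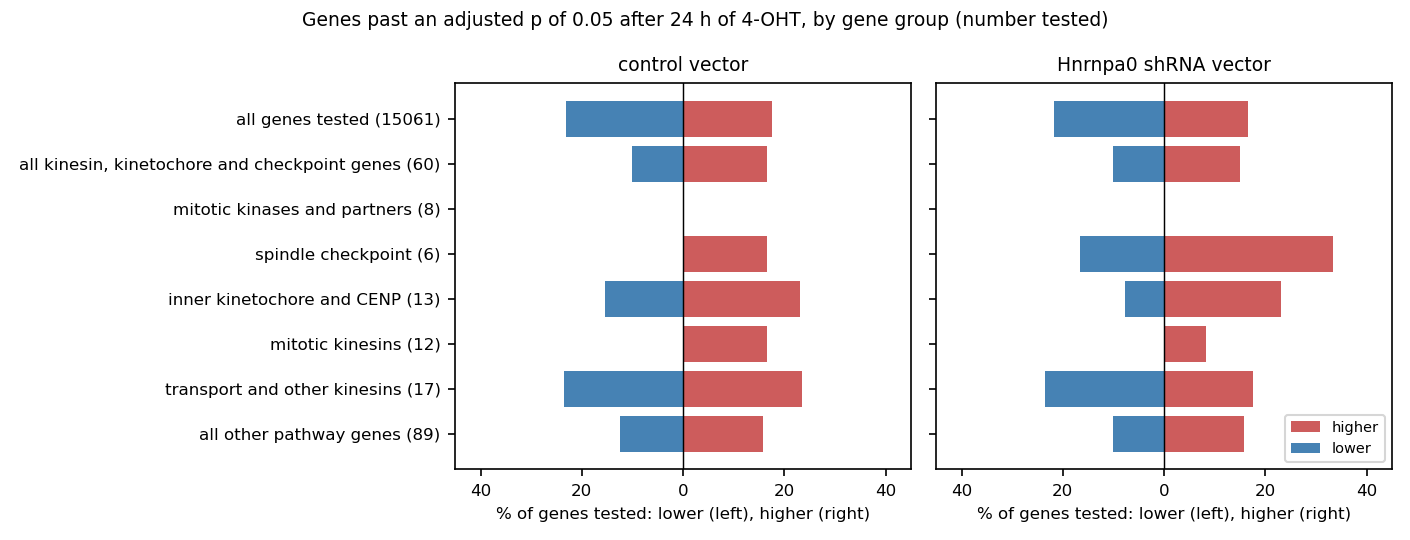
Bars give the percentage of tested genes with an adjusted p below 0.05 after 4-OHT, lower to the left and higher to the right, for all 15061 genes, the 60 genes, their roles and 89 other mitotic genes. No mitotic kinase or partner (0 of 8) passed in either vector, but Aurka and Incenp, among the 8, were saturated on 9 and 12 of the 12 arrays.

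None of the 8 mitotic kinases and their partners passed in either vector (0 at an unadjusted p below 0.05 in the control vector and 2 in the shRNA vector). The 8 were Aurka, Aurkb, Aurkc, Aurkaip1, Plk1, Plk4, Tpx2 and Incenp, grouped partly by name. Aurkc was dim, at -3.80 to -2.45 over the 12 arrays. For Aurka and Incenp, which are among the 8, saturation may hide a change. Plk1, the Polo kinase that drives entry into and exit from mitosis, was 4.42 and 4.30 on the control arrays A and C before 4-OHT, with its spot on B left out as an outlier. It was 4.41, 4.26 and 4.23 after 4-OHT. With the shRNA, Plk1 was 4.45, 4.36 and 4.43 before and 4.36, 4.33 and 4.41 after. The groups overlapped, and the change was -0.06 (SE 0.08, 95% interval -0.23 to 0.12) and -0.05 (SE 0.07, interval -0.20 to 0.11).

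Aurkb, the kinase of the chromosomal passenger complex, was 2.08, 1.93 and 2.02 before and 2.12, 1.88 and 1.79 after in the control vector, again overlapping (change -0.08, interval -0.28 to 0.12). Its change with the shRNA was 0.06 (SE 0.09). Plk4, which starts centriole duplication, changed by 0.07 and -0.08 (SE 0.07 both). Tpx2, which activates Aurora A on the spindle, changed by 0.07 and 0.16 (adjusted p = 0.386 and 0.0607). Aurka, the spindle-pole Aurora kinase, was saturated on 9 of the 12 arrays and Incenp, the scaffold of the passenger complex, on all 12. Their fitted changes (-0.11 and -0.35, and -0.15 and -0.37) may follow the array's scaling. Neither sign nor size can be read from them, and no fold is given.

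The spindle checkpoint genes showed small shifts on their tested probes. The largest in the control vector was that of Mad2l1bp, whose product takes the checkpoint protein Mad2 out of its active complex. It was 3.59, 3.61 and 3.57 before and 3.89 and 3.79 after on the 2 arrays that had it, and rose by 0.25 (SE 0.06, adjusted p = 0.0116). It rose by 0.22 in the shRNA vector (SE 0.06, adjusted p = 0.0134). The groups did not overlap in either vector, and the call was lost in 7 of 28 alternative settings in the control vector, among them without control B after 4-OHT (0.20, adjusted p = 0.104) and with a block for vector and letter (0.25, adjusted p = 0.0942). In the shRNA vector it was lost in 6 of 29, among them without shRNA A after 4-OHT (0.19, adjusted p = 0.0543).

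Mad2l1, which encodes Mad2 itself, changed by 0.03 and -0.05 (SE 0.12 both). Bub1, a kinase that docks the checkpoint on kinetochores, changed by 0.21 and 0.19 (adjusted p = 0.0955 and 0.124), and its partner Bub3 by -0.17 and -0.19 (adjusted p = 0.145 and 0.106). The further Bub3 probes past the filter were lower on every array after 4-OHT in both vectors. The dimmer read -2.238, -2.141 and -2.262 before and -2.655, -2.638 and -2.464 after in the control vector. With the shRNA it read -2.221, -2.069 and -2.271 before and -2.573, -2.496 and -2.515 after. The Bub3 result thus depends on the probe. Bub1b, the inhibitor of the anaphase-promoting complex, was 1.97, 2.05 and 2.28 before and 2.35 and 2.49 after in the shRNA vector, with its spot on array A after 4-OHT left out as an outlier, and there it rose by 0.32 (SE 0.11, adjusted p = 0.0495). That call was lost in 21 of 29 settings, including the removal of any of 9 arrays (0.25 to 0.39, adjusted p up to 0.209), and held without control A or B or shRNA C before 4-OHT. With a block for vector and letter it was 0.257 (adjusted p = 0.0519). In the control vector Bub1b changed by 0.10 (SE 0.10). Mad2l2, which also serves DNA repair, fell by 0.25 in the shRNA vector (SE 0.07, adjusted p = 0.0191) and changed by -0.19 in the control vector (adjusted p = 0.0586). The Mad2l2 call was lost without shRNA A or B at either time (-0.25 to -0.21).

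Among 13 inner kinetochore and other CENP genes, 3 rose and 2 fell in the control vector, and 3 rose and 1 fell in the shRNA vector. Cenpt, which ties centromeric chromatin to the outer kinetochore, was 0.39, 0.25 and 0.24 before and 0.88, 0.88 and 0.99 after in the control vector. It was 0.49, 0.41 and 0.55 before and 1.05, 1.11 and 1.16 after in the shRNA vector. Every array after 4-OHT was above every array before it, and the rise was 0.62 in both vectors (SE 0.07, 1.54-fold, adjusted p = 3.73e-05 and 3.98e-05). The difference was 0.58 within slide 1, which holds 3 control arrays before and 1 after, and 0.55 within slide 3, which holds 1 shRNA array before and 3 after. These and the other within-slide values set 1 array against 3, so they are given as values only.

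Cenpa, the histone variant that marks centromeres, rose by 0.29 (SE 0.09, adjusted p = 0.0270) and 0.29 (adjusted p = 0.0319), and each call was lost in 10 of 29 settings. They include leaving out control A, B or C before 4-OHT (0.28 to 0.31) for the first, and shRNA B or C before or any shRNA array after 4-OHT (0.27 to 0.30) for the second. Cenpb, which binds centromeric satellite DNA, was 0.97, 0.62 and 0.66 before and 1.23, 1.24 and 1.25 after in the control vector, a rise of 0.49 (SE 0.09, adjusted p = 0.00123). With the shRNA it already stood at 1.15, 1.06 and 1.10 before 4-OHT and was 1.18, 1.27 and 1.32 after (change 0.15, adjusted p = 0.193). Its responses in the 2 vectors differed by -0.34 (SE 0.12), the lowest p among the 60 genes for that comparison, with an adjusted p of 0.932.

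Cenpj, a centriole assembly factor, fell in both vectors by 0.36 and 0.34 (SE 0.06 both, adjusted p = 0.00103 and 0.00173). Cenpp fell in the control vector by 0.38 (SE 0.11, adjusted p = 0.0204), a call lost in 11 of 29 settings (without control A before or control B or C after 4-OHT, -0.38 to -0.25), and changed by -0.30 in the shRNA vector (adjusted p = 0.0572). Both belong by name with the CENP genes, but only Cenpp is part of the complex that stays on centromeres through the cycle. Cenpo, of the same complex, rose in the shRNA vector by 0.24 (SE 0.07, adjusted p = 0.0320, without the outlier spot on shRNA C after 4-OHT), with 15 of 29 settings losing the call, 8 of them the removal of 1 array (0.18 to 0.29, all but control C before, control A and C after, and shRNA C after 4-OHT). With a block for vector and letter Cenpo changed by 0.22 (adjusted p = 0.248). The other 7 of these genes did not pass in either vector on their tested probes. A second, dim probe of Cenph, among the 7, was higher on every array after 4-OHT. It was -4.37, -4.34 and -4.20 before and -3.81, -3.77 and -3.38 after in the control vector. With the shRNA it was -4.46, -4.22 and -4.53 before and -3.61, -3.45 and -3.44 after, so the Cenph result depends on the probe.

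Cenpe, a kinetochore motor that moves chromosomes to the spindle equator, changed by -0.07 and -0.06 (SE 0.06 both), and Cenpf, a large outer kinetochore protein, by -0.16 and -0.19 (SE 0.08 both, adjusted p = 0.144 and 0.118, with outlier spots left out on control A and shRNA C before and shRNA A after 4-OHT). Neither passed at an unadjusted p of 0.05. Ndc80, Nuf2, Spc24 and Spc25, which form the complex that grips microtubules, appear in the files under older names and so fall outside the naming rule. They changed by 0.17, -0.03, 0.08 and 0.04 in the control vector and by 0.15, -0.001, -0.06 and -0.11 in the shRNA vector, and no adjusted p was below 0.119. Of 13 tested genes of these families under older names, 0 passed in the control vector (1 at an unadjusted p below 0.05) and 1, Kif20b, rose in the shRNA vector by 0.27 (adjusted p = 0.0288). Top2a, the topoisomerase that untangles chromosomes, changed by 0.04 (SE 0.10) and 0.25 (SE 0.10, adjusted p = 0.0640) on its tested probe. A second, dimmer Top2a probe was higher on every array after 4-OHT in both vectors. It was -0.67, -0.68 and -0.71 before and -0.60, -0.45 and -0.24 after in the control vector. With the shRNA it was -0.43, -0.22 and 0.03 before and 0.17, 0.24 and 0.21 after.

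Of the 12 mitotic kinesins 2 rose in the control vector, and both act at the middle of the dividing cell. Kif23, the motor of the centralspindlin complex that organises the cleavage furrow, was 0.49, 0.43 and 0.41 before and 1.15, 1.26 and 1.29 after. With the shRNA, Kif23 was 0.44, 0.58 and 0.51 before and 1.28, 1.22 and 0.97 after. The arrays before and after 4-OHT did not overlap in either vector, and Kif23 rose by 0.79 (SE 0.08, 1.73-fold, adjusted p = 3.05e-05) and 0.65 (SE 0.08, 1.57-fold, adjusted p = 0.000149). The difference was 0.71 within slide 1 and 0.645 within slide 3, each of 1 array against 3. A second Kif23 probe gave 0.73 and 0.74.

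Racgap1, the partner of Kif23 in centralspindlin, was 1.08, 0.91 and 1.00 before and 1.41, 1.32 and 1.33 after in the control vector, a rise of 0.36 (adjusted p = 0.00146). It rose by 0.29 in the shRNA vector (adjusted p = 0.00549), so both subunits were higher after 4-OHT in both vectors. Kif20a, which brings the passenger complex to the central spindle, was 4.67, 4.45 and 4.46 before and 5.19, 4.95 and 4.78 after in the control vector. Kif20a rose by 0.45 (SE 0.10, adjusted p = 0.00509) in the control vector, and its change in the shRNA vector was 0.27 (adjusted p = 0.0575), where 2 of the 3 arrays after 4-OHT were saturated. A second, dimmer Kif20a probe, saturated on 0 arrays, was higher by 0.51 and 0.39 (adjusted p over probes 0.00179 and 0.00900). The Kif20a responses did not differ past the threshold on either probe. With a block for vector and letter the change in the shRNA vector passed (0.27, adjusted p = 0.0233).

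The other mitotic kinesins stayed near 0 on their tested probes. Kif11, which pushes spindle poles apart, was 0.30, 0.24 and 0.27 before and 0.02, 0.25 and 0.35 after in the control vector, with overlapping groups (change -0.06, interval -0.30 to 0.17, and -0.08 in the shRNA vector). On a second, dim Kif11 probe the levels were -2.60, -2.23 and -2.17 before and -3.32, -3.02 and -2.54 after in the control vector. With the shRNA they were -2.845, -3.21 and -3.72 before and -4.04, -3.54 and -3.45 after. Before and after overlapped in each vector, and also on a further, dimmer probe. Before 4-OHT every shRNA array of the second probe was below every control array. The Kif11 result thus depends on the probe. Kif2c, a microtubule depolymeriser at centromeres, changed by 0.13 and 0.17 (adjusted p = 0.189 and 0.0807). Kif4, Kif14, Kif15, Kif18a, Kif22 and Kif24 lay between -0.17 and 0.22 in the control vector and between -0.21 and 0.23 in the shRNA vector. The probes named Kifc1 carry a transcript that the reference lists as Kifc5b, a near-identical copy, so the value under that name (0.10 and 0.13, neither passing) cannot be given to 1 gene.

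**Figure D3:**
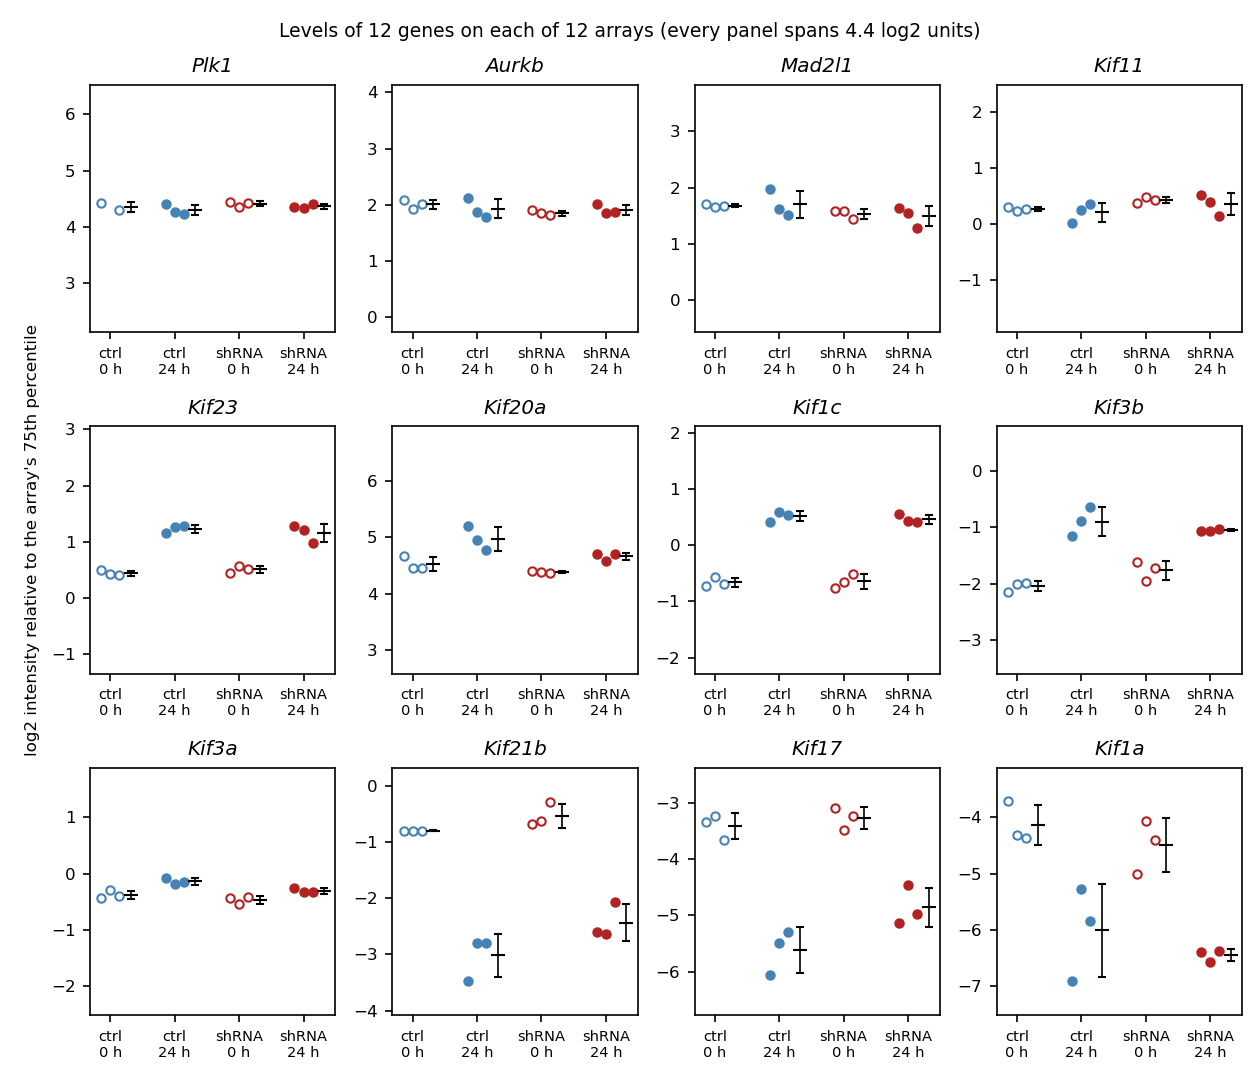
Each panel shows the log2 level of 1 gene on each array (control vector blue, shRNA vector red, open before 4-OHT, filled after 24 h), with the mean and SD of the group as a dash and bars beside the points. Panels all span 4.4 log2 units, so Plk1, Aurkb, Mad2l1 and Kif11 lie flat on their tested probes while Kif1c and Kif3b step up and Kif21b, Kif17 and Kif1a step down.

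The large changes were those of cargo-carrying kinesins. Kif1c, a motor for vesicles and integrins, was -0.73, -0.57 and -0.69 before and 0.41, 0.60 and 0.54 after in the control vector, and -0.77, -0.66 and -0.51 before and 0.55, 0.42 and 0.41 after in the shRNA vector. The groups were far apart in both vectors. Kif1c rose by 1.18 (SE 0.09, 2.26-fold, adjusted p = 1.57e-06) and by 1.10 (SE 0.09, 2.15-fold, adjusted p = 3.06e-06). It passed under all 29 alternative settings in each vector, 1 of which is a within-slide fit of 1 array against 3 (1.08 on slide 1 and 0.97 on slide 3). Its other probes that passed the filter rose by 1.60 and 1.46 in the control vector, and in the shRNA vector gave 1.15 and 0.50, the last of which did not pass (adjusted p over probes 0.189).

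Kif3b, a subunit of the kinesin-2 motor that works in cilia and on endosomes, was -2.15, -2.00 and -1.99 before and -1.16, -0.89 and -0.65 after in the control vector. In the shRNA vector it was -1.62, -1.96 and -1.72 before and -1.07, -1.06 and -1.03 after. It rose by 1.15 (SE 0.13, 2.22-fold, adjusted p = 3.39e-05) and by 0.71 (SE 0.13, 1.64-fold, adjusted p = 0.00115), with no overlap between before and after. The 2 responses differed by -0.44 (SE 0.18, adjusted p = 0.932), and a second probe gave 1.06 and 1.11, so the smaller rise in the shRNA vector was not seen on both probes.

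Kif3a, the partner of Kif3b, was -0.43, -0.30 and -0.40 before and -0.09, -0.19 and -0.14 after in the control vector, and rose by 0.23 (SE 0.07, adjusted p = 0.0149), a call lost in 7 of 29 settings (without control A or C before 4-OHT, 0.21 and 0.22). Kif3a changed by 0.15 in the shRNA vector (adjusted p = 0.0865). Kifap3, the cargo adaptor of the motor and not one of the 67, rose by 0.48 and 0.51 (adjusted p = 0.000159 and 0.000116). Kif3c, an alternative partner of Kif3a, changed by -0.04 and -0.11 (SE 0.08 both). The 3 subunits of the Kif3a and Kif3b motor all rose in the control vector, and 2 of them in the shRNA vector.

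Kif21b, a motor that also restrains microtubule growth, showed the largest measured fall. Its tested probe was -0.80, -0.80 and -0.81 before and -3.46, -2.80 and -2.79 after in the control vector. With the shRNA it was -0.69, -0.62 and -0.29 before and -2.60, -2.64 and -2.06 after. The gap was wide in both vectors, and Kif21b fell by 2.21 (SE 0.20, 4.64-fold, adjusted p = 9.49e-06) and 1.90 (SE 0.20, 3.74-fold, adjusted p = 3.33e-05). A second bright Kif21b probe was marked as an outlier on all 6 arrays before 4-OHT and so was not tested. With those spots kept it read 3.30 to 3.62 before and 0.97 to 1.26 after over both vectors. A further, dim probe changed by -0.46 (adjusted p over probes 0.0634) and -1.26 (0.000259).

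Kif17, a kinesin-2 relative known from cilia and dendrites, was -3.34, -3.23 and -3.67 before and -6.07, -5.49 and -5.29 after in the control vector, where no array was well above background after 4-OHT. It was therefore at least 3.13-fold lower (adjusted p = 2.24e-05). In the shRNA vector it was -3.10, -3.49 and -3.24 before and -5.14, -4.46 and -4.98 after, with 1 of 3 arrays above background after 4-OHT. The fitted change there was -1.58 (adjusted p = 0.000278), with the other 2 arrays at background, so its size is uncertain. Kif1a, which carries synaptic vesicle precursors in neurons, was near the limit of detection before 4-OHT (-3.72, -4.32 and -4.38 in the control vector) and below it after, at least 1.89-fold lower (adjusted p = 0.00237) in the control vector and at least 1.60-fold lower (adjusted p = 0.00202) in the shRNA vector. In the control vector the Kif1a call was lost when background was subtracted with the normexp method.

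Kif7, a cilium-tip regulator of Hedgehog signalling, fell in both vectors by 0.55 and 0.57 (SE 0.14 both, adjusted p = 0.0104 and 0.0101). With slide as a fixed block neither Kif7 call was kept. Kif13a, an endosome motor, rose in the control vector by 0.37 (SE 0.11, adjusted p = 0.0227), a call also lost with slide as a block, with a block for vector and letter (0.37, adjusted p = 0.0668) and without control C before or control B or C after 4-OHT (0.28 to 0.35). Kif16b, another endosome motor, rose in the shRNA vector by 0.29 (SE 0.07, adjusted p = 0.00690) and changed by 0.19 in the control vector (adjusted p = 0.0508). Kif5b, the conventional kinesin heavy chain, changed by 0.16 and -0.04, with 2 of 3 shRNA arrays saturated after 4-OHT. The stress-responsive Polo kinase Plk3 changed by -0.24 and -0.08 (adjusted p = 0.0854 and 0.539), and Plk2 was above background on 0 arrays.

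The control and shRNA responses share no arrays. Of the 10 genes that rose in the control vector, 60% also rose in the shRNA vector (Cenpa, Cenpt, Kif1c, Kif23, Kif3b and Mad2l1bp), and they were 66.7% of the 9 that rose there. Of the 6 that fell in each, 5 fell in both (Cenpj, Kif17, Kif1a, Kif21b and Kif7), which is 83.3%. Over all genes tested the shares were 79.8% and 84.7% for rises and 78.8% and 83.2% for falls.

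Plk1 was used as a guide to which genes varied alike over the 11 arrays that had it. The 10 genes with the highest Pearson r were Bub3 (0.693), Cenph (0.687), Kif3c, Kif24, Kif18a, Cenpp, Cenpm, Cenpj, Cenpq and Kif21b (0.444). These arrays share slides and scaling, and Plk1 itself moved little, so the order is a description of small deviations.

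Of 95 other genes of mitosis listed, 89 were tested, and 14 rose and 11 fell in the control vector (28.1% in all, where 40.5% of all genes passed), and 14 rose and 9 fell in the shRNA vector (25.8%, where 38.3% did). Of the 42 mitotic genes described above 19% passed in each vector. All but 2 changed by less than 0.5 in the control vector. In the cyclin and CDK list of 10, Foxm1, a transcription factor for mitotic genes, rose by 0.26 and 0.38 (adjusted p = 0.0229 and 0.00315), and Mybl2, a partner in the same programme, fell by 0.46 and 0.35 (adjusted p = 0.00378 and 0.0197). Wee1, the kinase that holds CDK1 in check, fell by 0.46 in the control vector (adjusted p = 0.000837) and changed by -0.035 in the shRNA vector (adjusted p = 0.745). The 2 Wee1 responses differed by 0.42 (SE 0.11, adjusted p = 0.716). Of the 16 genes of the anaphase-promoting complex and its regulators, 2 rose and 2 fell in the control vector, and 4 rose and 2 fell in the shRNA vector. Anapc5 and Cdc20, among the 16, were saturated on every array after 4-OHT, so a change in them may not show.

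Among 14 other kinetochore genes 1 rose and 2 fell in the control vector, and 2 rose and 2 fell in the shRNA vector. Hjurp, the chaperone that loads Cenpa, fell by 0.68 and 0.42 (adjusted p = 0.000206 and 0.00504) while Cenpa rose. Knl1, the platform for Bub1 at kinetochores, rose by 0.28 and 0.36 (adjusted p = 0.0407 and 0.0133). Of 15 cohesin and condensin genes 2 rose and 2 fell in each vector, and of 11 passenger and checkpoint genes 1 rose and 1 fell in the control vector and 0 passed in the shRNA vector (2 at an unadjusted p below 0.05). Of 23 spindle and midbody genes 6 rose and 2 fell in the control vector and 5 rose and 2 fell in the shRNA vector, among them Nusap1 (0.37 and 0.44), a spindle bundling protein, and Melk (0.37 and 0.41), a mitotic kinase, which rose in both.

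Before 4-OHT none of the 60 genes passed between the vectors by limma (0, with 15 at an unadjusted p below 0.05, and 1 higher and 1 lower with a variance trend), where 0.378% of all genes tested passed. That share is 57 genes and turns on single arrays, with 0 without control C before 4-OHT and 496 without shRNA A before it. Plk3, a kinase of the stress response, had the lowest p. It was -0.93, -0.82 and -0.54 in the control vector and -1.14, -1.21 and -1.41 in the shRNA vector, so every shRNA array was lower (difference -0.49, SE 0.10, adjusted p = 0.0641). The next were Cenpb (0.35, adjusted p = 0.0810), Cenpe (-0.22, adjusted p = 0.103), Bub1b (0.33, adjusted p = 0.122) and Cenpk, of the constitutive centromere complex (0.39, adjusted p = 0.125). The vectors shared no slide within a treatment, so vector and slide cannot be told apart in these values except through slide 2, the only slide that held both vectors (2 control arrays after and 2 shRNA arrays before 4-OHT).

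After 24 h of 4-OHT, 4 of the 60 genes were higher in the shRNA vector and 3 lower, 11.7%, where 16.7% of all genes tested passed (7.85% higher, 8.82% lower). That share is 2512 genes, against 1128 without control A after 4-OHT, 308 without control B, and 1353, 603 and 499 without shRNA A, B and C after it. Top2a was 2.14, 2.16 and 2.23 in the control vector and 2.67, 2.66 and 2.69 in the shRNA vector, a difference of 0.50 (SE 0.10, adjusted p = 0.0159), and a second probe gave 0.64. Bub1b was 1.88, 1.82 and 1.92 against 2.35 and 2.49 on the 2 shRNA arrays that had it, a difference of 0.55 (SE 0.11, adjusted p = 0.0196). Every shRNA array with a value was above every control array for both genes. Kif4, a chromosome-bound motor that shapes the central spindle, was 0.33 higher (SE 0.09, adjusted p = 0.0318). Kif17 was higher by at least 1.15-fold (adjusted p = 0.0469), with 0 of 3 control and 1 of 3 shRNA arrays above background.

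Kif22, a motor that pushes chromosome arms outward, was 4.54, 4.32 and 3.98 in the control vector and 3.89, 3.84 and 3.82 in the shRNA vector, lower by 0.43 on the log2 scale (difference -0.43, SE 0.13, adjusted p = 0.0490). Mad2l2 was lower (difference -0.27, SE 0.07, adjusted p = 0.0310). Cenpe was lower on its tested probe (difference -0.21, SE 0.06, adjusted p = 0.0457), while a dimmer Cenpe probe was higher by 0.43 (adjusted p over probes 0.0418), so its direction depends on the probe. The differences before 4-OHT had the same sign for all 7, for example 0.28 for Top2a, 0.33 for Bub1b and -0.40 for Kif22, and none of those passed.

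None of these 7 calls was kept with slide in the fit, and the differences shrank. Under the fixed slide block it was 0.12 for Top2a (adjusted p = 0.875), 0.28 for Bub1b (0.831), 0.06 for Kif4 (0.946) and -0.03 for Kif22 (0.990), and with slide as a random block 0.36, 0.45, 0.22 and -0.32, with adjusted p between 0.188 and 0.317 over the 7. Single arrays also decided the counts: 0 were higher without control B or shRNA C after 4-OHT, 1 without shRNA B and 2 without control A. None were lower (0) without control A, control B, shRNA B or shRNA C after 4-OHT. There was 1 without control B, shRNA A or shRNA B before or shRNA A after it, and 5 without shRNA C before or control C after it. For Top2a the call was lost without control B or shRNA C after 4-OHT (0.49, adjusted p = 0.0519 and 0.0560), and for Bub1b without control B, shRNA B or shRNA C after it (0.48 to 0.62). Kif4 lost it without control A, B or C or shRNA B or C after it (0.29 to 0.36), and Mad2l2 without control A or B or shRNA A, B or C after it (-0.30 to -0.20). Cenpe (-0.23 to -0.17) and Kif22 (-0.45 to -0.30) lost it without any array but shRNA C before or control C after it, and Kif17 (0.53 to 0.90) without any array but control C after it. Spc25, of the Ndc80 complex, was lower (difference -0.41, adjusted p = 0.0330), a call lost with slide in the fit. Of the 89 other mitotic genes 17 were higher and 4 lower in the shRNA vector after 4-OHT (23.6%), on the same slides. Haspin, the kinase that marks centromeric histone H3, was 0.63 higher (adjusted p = 0.0113) and Ncaph, a condensin subunit, 0.51 higher (adjusted p = 0.0151). With slide as a random block 0 of all 15061 genes passed (1 with the fixed block), so none of these 21 calls was kept with the random block.

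**Figure D4:**
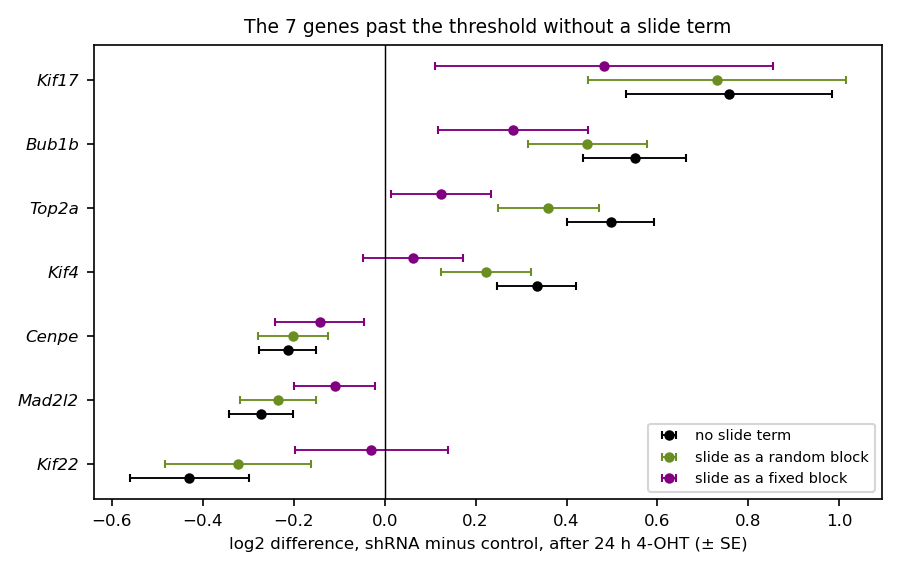
Points give the log2 difference between the shRNA and control vectors after 24 h of 4-OHT with its SE, for the 7 genes that passed without a slide term (black), with slide as a random block (green) and with slide as a fixed block (purple). All 7 keep their sign and shrink toward 0 with slide in the fit, Kif22 from -0.43 to -0.03 with the fixed block.

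A difference in the 4-OHT response between the vectors was not called for any of the 60 genes by limma (0 passed, also with a variance trend or a slide block, and 2 of the 60, Cenpb and Kif3b, had an unadjusted p below 0.05). Of all genes tested 0% passed and 790 had an unadjusted p below 0.05. For 56 of the 60 the 95% interval of the difference excluded 2-fold. The 56 include Aurka and Incenp, whose readings are capped by saturation and may not show such a difference. The responses of Top2a and Bub1b differed by 0.21 (SE 0.14) and 0.22 (SE 0.15). The other 4 were Kif17, Kif1a, Kif9 and Kifc5c, all dim, for which no size is given.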

How the data were processed

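The authors scanned one-colour arrays and read them with Agilent Feature Extraction 9.5, per the submitters' processing notes (9.5.3.1 in the file headers). The deposited values are linear intensity per spot after background subtraction, with no scaling between arrays, per the file headers. The deposited summary of values holds the same intensity, rounded, within 0.497% on every array.

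Control spots and outlier spots were left out, spots of a probe averaged, and log2 taken after division by the 75th percentile of an array's non-control spots. Probes were named through RefSeq transcripts (23082), symbols (6582) or older symbols (3073), and 8437 kept the file's name; the genes described were found by the file's name. Each gene was tested on its brightest probe, if well above background on 3 of 12 arrays and present on 2 arrays per group. limma 3.58.1 (R 4.3.3, the data.table package, version 1.17.8, statmod 1.5.0) fitted 4 group means. The script was tested on simulated data. Folds against a group below background are lower bounds that put the dim group at the weakest detected signal of its arrays.

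Members and lists were chosen with earlier results of these data known. Named genes were, per 4-OHT contrast, the 10 largest rises and falls past the threshold; per vector contrast and for the interaction, all past it or the 5 of lowest p; and 26 kinases, checkpoint, kinetochore and motor genes fixed by name. Genes of the other lists that are named were chosen after their values were seen. Probe positions are on mouse build mm7, for which no genome was used here. Figures used Python 3.11.15 and matplotlib 3.10.9. The number of arrays limits the precision. The B cell markers are not reported here.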

Additional observations from a re-analysis of the deposited data

How the results depend on the processing

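Over 29 alternative settings (27 for the vector contrasts, fewer where a gene dropped out), single-gene results kept their direction and side of the threshold in 4263 comparisons, lost a call in 234, gained one in 49 and turned in 2. The 2 were the shRNA-minus-control difference after 4-OHT of Cenpe with the mean of its probes (0.058, adjusted p = 0.539) and of Kif17 with normexp background (-0.18, adjusted p = 0.558); for Cenpe the probes disagree in sign, and for Kif17 the cause was not tested. Kif1c, Kif3b, Kif21b, Kif17 and Cenpt passed in both vectors under every setting run, and Kif23 and Kif20a in the control vector. The 60 genes had 37 further probes past the filter. Of these, 29 had the sign of the tested probe for the 4-OHT change in the control vector and 27 in the shRNA vector. Between vectors 26 had it before 4-OHT and 19 after it, and 20 had it for the difference of responses.

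Leaving out 1 array at a time gave 7 to 11 rises and 5 to 10 falls in the control vector, 5 to 13 and 5 to 11 in the shRNA vector, 0 to 1 and 0 to 1 between vectors before 4-OHT, 0 to 6 and 0 to 5 after it, and 0 and 0 for the difference of responses. In the shRNA vector rises were 5 with normexp, 5 with no filter and 3 within slide 3, and falls 3 within slide 3; the within-slide fits set 1 array against 3 and assume that the lone array varies like the others. Between vectors before 4-OHT, 1 was higher and 1 lower with a variance trend, and 1 lower with quantile scaling or the letter block. After 4-OHT, 0 were higher with no filter, slide as a fixed block or as a random block, 7 with a variance trend and 2 with only the 2 groups fitted; 0 were lower with median scaling, no filter, slide as a fixed or random block, 1 with the mean of probes, 1 with only the 2 groups, and 5 with the letter block. The cause was not tested.

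Replicate letters are shared across groups, but same-letter deviations correlated at 0.259, 0.055 and 0.198 between the control groups and at 0.064, -0.036 and 0.149 between the shRNA groups, not all above 0.1. The labels do not say whether a letter is 1 clone before and after 4-OHT; if it is, the block by vector and letter is the paired fit. The replicate block by letter gave 12 rises and 8 falls in the control vector, 8 and 7 in the shRNA vector, and 4 higher and 5 lower between vectors after 4-OHT; the block by vector and letter gave 9 and 7, and 8 and 9, and changed 5 named calls: Kif13a and Mad2l1bp (control), Bub1b and Cenpo (shRNA) were lost and Kif20a (shRNA) gained.

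Over all genes, calls between vectors after 4-OHT were 2512 in the fit as reported, 1 with slide as a fixed block and 0 as a random block (correlation 0.386), 358 with no filter, and 900 when the 75th percentile left out outlier spots, an alternative added after seeing the data, as was keeping those spots. That scaling moved the median difference of all genes between vectors before 4-OHT from -0.03 to -0.13. The calls for the difference of responses were 1 with a variance trend and 2 with slide as a fixed block. Before 4-OHT, calls were 57 as reported, 677 with a variance trend, 395 with quantile scaling and 185 with the letter block, and 2 with normexp. Saturation limits Aurka and Incenp, and background limits Kif17, Kif1a, Kif9, Kif12 and Kifc5c. Among the other mitotic genes saturation limits at least Anapc5, Birc5, Cdc20 and Cdca8.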
